A study of Mus musculus with 16 samples.

Results

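The proteasome genes were the 50 genes whose symbols begin with Psm followed by a letter from a to g, and they were described in erythroid cells sorted from mouse bone marrow. All 50 symbols stood in both deposited tables, of 15386 genes in the RNA-seq table and 13490 in the m6A table. All 50 passed edgeR's filter on low counts in both, among 11979 and 11447 genes tested. They comprised 8 subunits of the 20S alpha ring, 4 structural, 3 constitutive catalytic and 4 immuno or thymus catalytic subunits of the 20S beta ring, 6 ATPases and 3 other subunits of the 19S base, 8 subunits of the 19S lid, 3 assembly chaperones of the base, 4 assembly chaperones of the core, and 6 activators or inhibitors. The remaining symbol, *Psmc3ip*, encodes a meiotic recombination factor that was named for binding Psmc3 and is no part of the proteasome.

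Control CFU-E cells gave 3 RNA-seq libraries, and 3 more came from cells labelled CFU-E Kit-lo and *Mettl3*-deficient. The m6A libraries were 2 of immunoprecipitated RNA (IP) and 2 of input RNA, all from control CFU-E cells. CFU-E cells are late erythroid progenitors that still carry the receptor Kit, and Kit-lo cells are those with very little of it. *Mettl3*, the gene of the enzyme that writes m6A on mRNA, was deleted by crossing *Mettl3* fl/fl animals to EpoR-tdTomato-Cre animals on a C57BL/6 background. The erythropoietin receptor locus drives this Cre, which the paper reports to act in erythroid cells and in macrophages of erythroblastic islands. The paper also reports a partial loss of *Mettl3* mRNA in blood stem and progenitor cells of these mice. The mice studied were adults of genotype *Mettl3* fl/fl EpoR Cre/-. Control CFU-E cells were not sorted on low Kit, so that genotype, Kit level and stage of maturation cannot be told apart in this comparison. The number of animals behind each library is not given in the sources used here, so the p-values measure the spread between these libraries, which may be technical. The m6A libraries compare IP with input and hold no deficient cells.

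The proteasome is the protease that degrades proteins marked with ubiquitin. Its 20S core is a barrel of stacked rings: the outer alpha rings gate the entry, and the inner beta rings carry the catalytic sites. The 19S cap sits on the core. Its base holds a ring of ATPases that unfold the substrate, and its lid removes ubiquitin. After interferon, and in many blood cells, the catalytic subunits Psmb6, Psmb7 and Psmb5 are replaced by Psmb9, Psmb10 and Psmb8, which gives the immunoproteasome, a form known for making peptides for MHC class I. Maturing erythroid cells remodel their proteome in part through ubiquitin and the proteasome.

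Library totals ran from 17429262 to 21329242 counts in the RNA-seq and from 19421059 to 37142742 in the m6A table, and the proteasome genes took 0.946 to 0.988% of the counts in the former and 2.23 to 2.50% in the latter. The gene-level count of *Mettl3* itself did not differ detectably between the labelled genotypes (log2 fold change -0.07, standard error [SE] 0.096, adjusted p = 0.634). The paper reports loss of *Mettl3* mRNA by qRT-PCR and of its protein by Western blot in erythroid cells of these mice. Whether counts summed over the whole gene register loss of the deleted exons was not tested. Of 8 markers of erythroid progenitors, *Kit* was called lower, falling by 3.44 on the log2 scale, and 4 were called higher (*Klf1*, *Epor*, *Zfpm1* and *Nfe2*), while 8 of 11 markers of late erythroid cells were called higher, with a summed level of 1185 to 1306 CPM in control and 4197 to 6037 CPM in Kit-lo libraries. Markers of leukocytes were scarce: the summed macrophage markers were at 24.8 to 29.4 CPM in control and 17.1 to 22.4 CPM in Kit-lo libraries, with 2 of 8 tested called lower (*C1qa* and *Cd163*) and *Adgre1* at 2 counts in each control and 0 in each Kit-lo library, too few to test. The summed granulocyte markers were at 25.8 to 39.2 CPM and 16.1 to 24.8 CPM, with *Mpo* called lower and *Ngp* higher among 4 tested. The summed lymphocyte markers were at 3.37 to 3.84 CPM and 2.55 to 3.34 CPM, and *Cd3d* was the 1 tested and was not called. The summed megakaryocyte markers were at 13.1 to 20.4 CPM and 20.03 to 25.9 CPM, with 2 of 4 called higher (*Itga2b* and *Gp9*). CPM are counts scaled to a common library size after TMM normalization throughout.

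Sequences are shown for the genes on which the results turn. The promoters are the RefSeq windows of GRCm38.p6 from 250 bases before to 50 bases after the transcription start, and 42 of the 50 genes had one. *Psmb8* and *Psmb9* are the immuno subunits that were lower in Kit-lo libraries, *Psmg1* is the core chaperone that was lower, and *Psmd9* is the base chaperone that was higher. Capitals mark matches on either strand to 5 motifs: TGACNNNGC, the antioxidant response element bound by Nrf1 and Nrf2, CCAAT, TTTC followed after any 2 bases by TTTC, for interferon-stimulated response elements (ISRE), TTCNNNGAA for gamma-activated sites, and the E-box CACGTG.
Psmb8 promoter, chr17:34197945-34198244, plus strand: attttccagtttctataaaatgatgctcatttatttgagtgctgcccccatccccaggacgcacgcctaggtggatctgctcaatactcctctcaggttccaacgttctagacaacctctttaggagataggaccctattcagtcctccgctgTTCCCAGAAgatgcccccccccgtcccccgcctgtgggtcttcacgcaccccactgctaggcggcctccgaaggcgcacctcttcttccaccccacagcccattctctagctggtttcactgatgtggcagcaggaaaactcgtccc
Psmb9 promoter, chr17:34187281-34187580, minus strand: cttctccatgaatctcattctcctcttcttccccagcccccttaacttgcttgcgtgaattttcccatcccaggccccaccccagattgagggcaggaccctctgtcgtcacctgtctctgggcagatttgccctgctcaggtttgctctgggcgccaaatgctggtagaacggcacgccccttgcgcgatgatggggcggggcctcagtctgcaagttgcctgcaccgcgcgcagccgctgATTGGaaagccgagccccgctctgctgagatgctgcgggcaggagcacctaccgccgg
Psmd9 promoter, chr5:123227940-123228239, plus strand: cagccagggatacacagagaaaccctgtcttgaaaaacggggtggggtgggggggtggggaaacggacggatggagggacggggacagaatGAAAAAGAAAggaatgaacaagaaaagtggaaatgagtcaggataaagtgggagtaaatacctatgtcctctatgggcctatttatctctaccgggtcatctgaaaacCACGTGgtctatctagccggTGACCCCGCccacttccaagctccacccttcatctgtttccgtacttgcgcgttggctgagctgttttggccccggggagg
Psmg1 promoter, chr16:95990911-95991210, minus strand: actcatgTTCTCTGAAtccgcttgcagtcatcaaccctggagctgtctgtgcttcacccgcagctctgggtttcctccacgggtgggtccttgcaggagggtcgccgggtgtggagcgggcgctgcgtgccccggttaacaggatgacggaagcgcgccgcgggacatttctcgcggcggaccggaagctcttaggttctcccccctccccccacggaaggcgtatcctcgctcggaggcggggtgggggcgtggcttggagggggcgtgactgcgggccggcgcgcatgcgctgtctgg

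The window of *Psmd9* held 3 of the motifs, namely the ISRE motif on the reverse strand beginning at base -159, CACGTG at -51 and TGACNNNGC at -31 from the start. The windows of *Psmb8* and *Psmg1* each held 1 match to TTCNNNGAA, at -97 and -243. *Psmb9* held CCAAT on the reverse strand at -8, in a window shared with *Tap1*, which is transcribed from the other strand (chr17:34187306-34187605). Neither *Psmb8* nor *Psmb9* held the ISRE motif in these bases. The outermost 5′ ends annotated in GENCODE lie upstream of the windows for *Psmb8* (base 34197721), *Psmb9* (base 34187764) and *Psmd9* (base 123169413). Bases before those ends were not searched. Among the 42 promoters, TGACNNNGC was in 6 (14.3%, against 16.7% of the promoters of tested genes), CCAAT in 15 (35.7% against 43.7%), the ISRE motif in 5 (11.9% against 3.78%), TTCNNNGAA in 3 (7.14% against 8.54%) and CACGTG in 4 (9.52% against 11.7%). These matches are a description of the letters and not of binding sites.

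The change between control and Kit-lo libraries was small for most proteasome genes and mostly downward. Of the 50 genes, 36 had a log2 fold change below 0 and 14 above, and the median was -0.18, against 0.0080 over all tested genes. Within 1.5-fold lay 43 of the 50 (86.0%), as did 67.1% of all tested genes. At a fold of at least 1.5 and an adjusted p under 0.05 (quasi-likelihood test of edgeR, Benjamini-Hochberg adjusted over all tested genes), 5 were called (10%), where the background was 22% of tested genes. One of the 5 was called higher, *Psmd9*, against a background of 12.1%, and 4 were called lower, *Psmb8*, *Psmg1*, *Psmb9* and *Psma8*, against 9.83%. At an adjusted p under 0.05 without a fold limit, 21 of 50 passed (42.0%, background 34.5%), 6 higher (background 17.6%) and 15 lower (background 16.9%). The control and Kit-lo libraries did not overlap in 30 of 50 genes (60.0%, background 47.5%). In bulk samples, fewer cells of a type and less RNA per cell cannot be told apart.

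**Figure D1:**
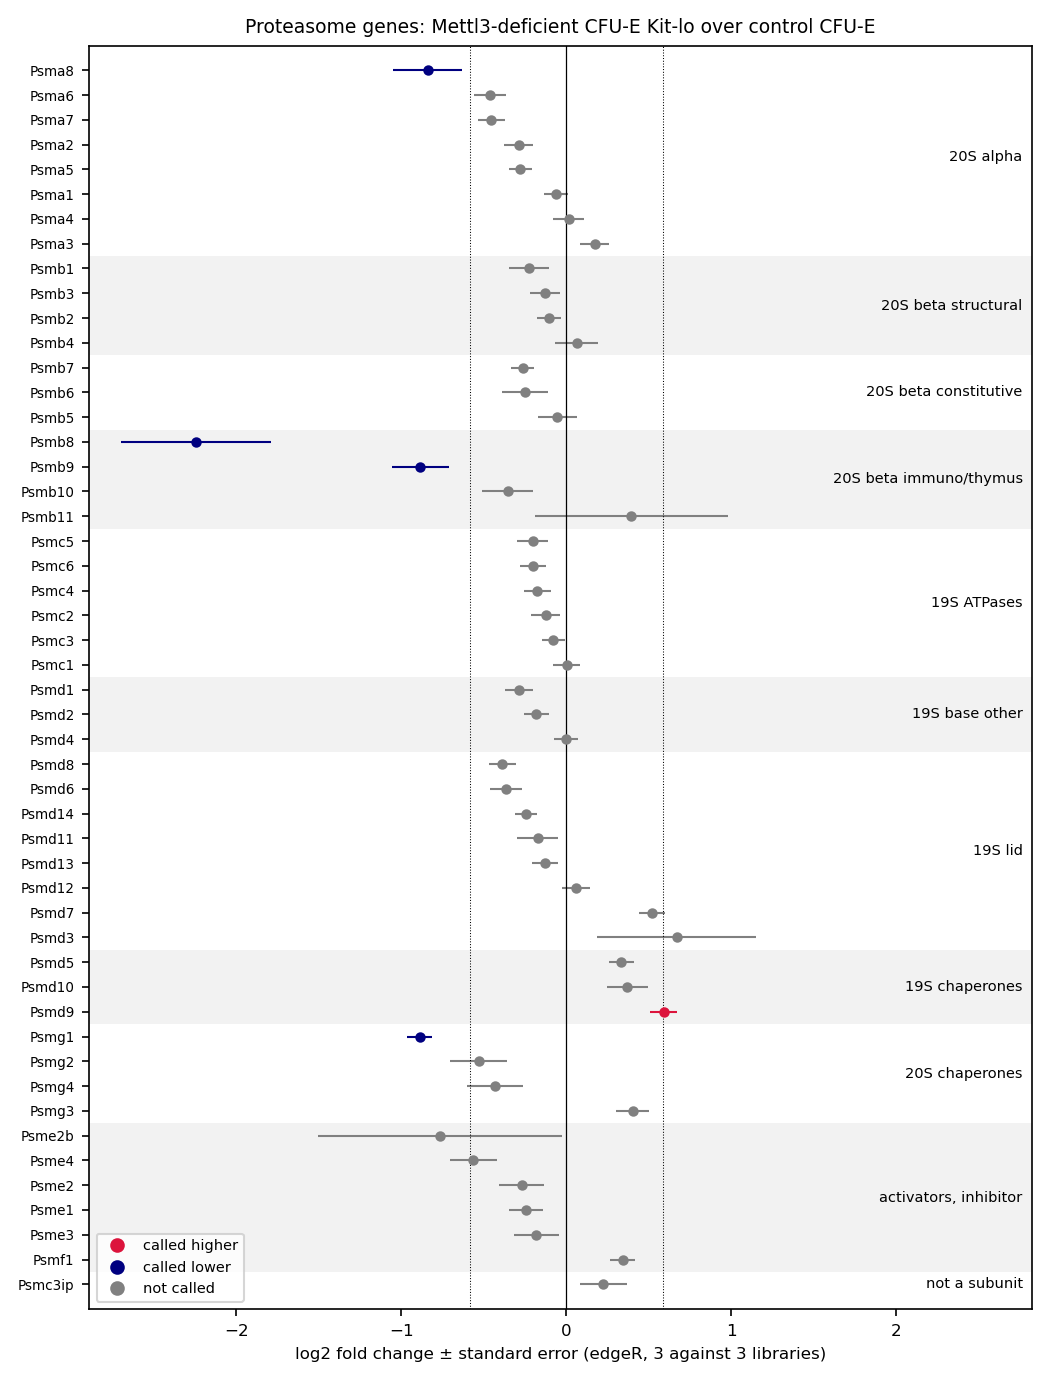
Log2 fold change (x axis) of each of the 50 proteasome genes (y axis, grouped by subcomplex) between 3 Mettl3-deficient CFU-E Kit-lo and 3 control CFU-E libraries, with bars of 1 standard error and dotted lines at a fold of 1.5. Most points lie between the dotted lines and left of 0, Psmb8 lies farthest to the left at -2.25, and the 3 base assembly chaperones all lie to the right of 0.

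The genes varied little within groups. The median within-group SD of log2 CPM was 0.0905 over the 50 genes and 0.216 over all tested genes, and 43 of the 50 were below the latter. This comparison was not matched for expression level. The steadiest was *Psma5*, an alpha ring subunit, whose SD was 0.0096. The widest was *Psmd3*, a lid subunit, whose SD was 0.976. Next came *Psme2b*, *Psmb8* and *Psmb11*, the members at the lowest RNA-seq levels. *Psmd3* stood at 98.2, 179.4 and 113.0 CPM in the control and 60.8, 202.8 and 357.3 CPM in the Kit-lo libraries, a 5.88-fold range within the latter group. The groups overlapped, and its log2 fold change of 0.67 had a SE of 0.48 (adjusted p = 0.322). Without Kit-lo replicate 1 it was 1.10 and passed the call (adjusted p = 0.0091), and without Kit-lo replicate 3 it was 0.019.

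The immuno catalytic subunits held the largest fall. *Psmb8*, which carries the chymotrypsin-like site of the immunoproteasome, was at 17.3, 17.1 and 13.0 CPM in the control and 6.44, 1.94 and 1.62 CPM in the Kit-lo libraries. All 3 Kit-lo libraries were below every control library, and Kit-lo replicate 1 was the nearest to them. The log2 fold change was -2.25 (SE 0.45, adjusted p = 0.0037), a 4.74-fold fall, and it ran from -3.15 without Kit-lo replicate 1 to -1.90 without Kit-lo replicate 3, with every such fit passing the call. A test against a fold of 1.5 itself (edgeR's glmTreat) left 2 of the 4 genes called lower and 0 called higher. *Psmb9*, the caspase-like position of the immunoproteasome, was at 55.1, 55.3 and 47.5 CPM in the control and 36.4, 23.3 and 25.9 CPM in the Kit-lo libraries. Again Kit-lo replicate 1 was the highest of its group and the groups did not overlap. Its log2 fold change was -0.88 (SE 0.17, adjusted p = 0.0029) and it passed the call under each other normalization, filter and left-out library.

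*Psmb10*, the trypsin-like position of the immunoproteasome, was at 58.9, 65.0 and 56.2 CPM in the control and 57.4, 37 and 46.3 CPM in the Kit-lo libraries. Kit-lo replicate 1 lay among the controls, and the log2 fold change of -0.36 (SE 0.16) did not pass (adjusted p = 0.109). *Psmb11*, the catalytic subunit particular to thymic epithelium, was at 0.286 to 1.03 CPM in the control and 0.874 to 1.25 CPM in the Kit-lo libraries, close to the limit of detection and overlapping (log2 fold change 0.39, SE 0.59). *Psmb8* overlaps the antisense gene *Gm20496* over 14.7% of its exonic bases and *Psmb9* overlaps *Tap1* over 5.79%, and whether the counting used strand is not stated.

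The constitutive subunits at the same positions moved less. *Psmb6*, the caspase-like subunit, was at 67.3, 59.4 and 49.5 CPM in the control and 51.7, 53.3 and 43.3 CPM in the Kit-lo libraries (log2 fold change -0.25, adjusted p = 0.207). *Psmb5*, the chymotrypsin-like subunit, was at 58.9, 55.1 and 48.4 CPM and 57.0, 49.7 and 49.8 CPM (log2 fold change -0.05, adjusted p = 0.769). The groups overlapped in both. *Psmb7*, the trypsin-like subunit, was at 330.6, 328.7 and 348.1 CPM in the control and 270.7, 284.9 and 282.8 CPM in the Kit-lo libraries. It was lower in all 3 Kit-lo libraries by a modest amount, with a log2 fold change of -0.26 (SE 0.071, adjusted p = 0.0158). *Pomp*, the chaperone that guides beta subunits into the ring, was at 138.1 to 155.0 CPM and 131.9 to 136.6 CPM (log2 fold change -0.14, adjusted p = 0.23).

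The ratio of each immuno subunit to its constitutive counterpart was taken per kb of transcript. The ratio of *Psmb8* to *Psmb5* was 0.162, 0.171 and 0.148 in the control and 0.0624, 0.0216 and 0.0179 in the Kit-lo libraries, a difference of -2.47 in the mean log2 ratio. That of *Psmb9* to *Psmb6* was 0.483, 0.550 and 0.567 against 0.415, 0.258 and 0.353, a difference of -0.66. The groups did not overlap in these 2 pairs. That of *Psmb10* to *Psmb7* was 0.158, 0.175 and 0.143 against 0.188, 0.115 and 0.145, a difference of -0.11 with overlapping groups. Exact two-sided permutation tests gave p = 0.10, 0.10 and 0.70 for the 3 pairs in this order (0.15, 0.15 and 0.70 with Benjamini-Hochberg adjustment over the 3 pairs), and 0.10 is the smallest p that 3 against 3 libraries can give.

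**Figure D2:**
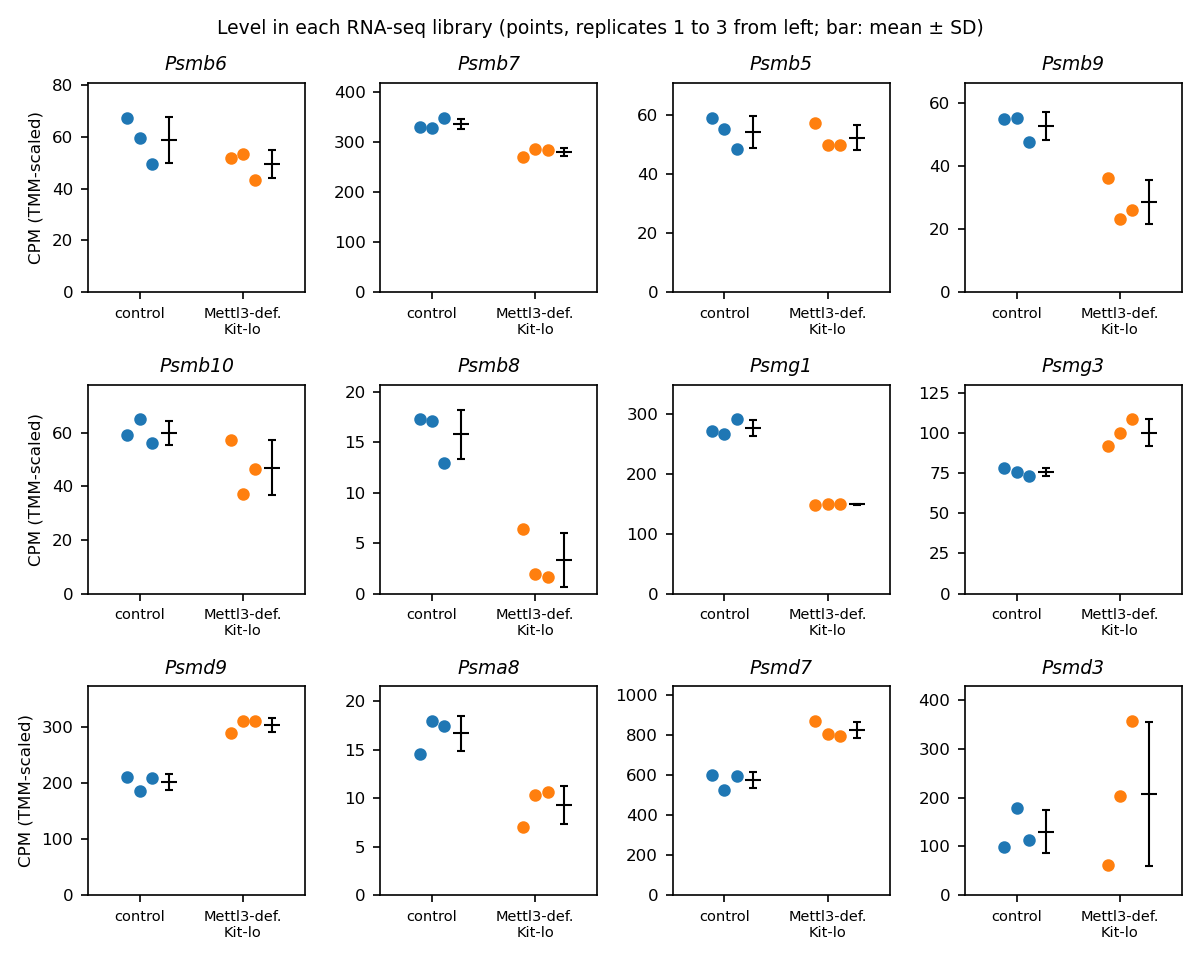
Level in CPM (y axis, from 0) of 12 proteasome genes in each RNA-seq library, as points for replicates 1 to 3 from left to right in control CFU-E (blue) and Mettl3-deficient CFU-E Kit-lo (orange), with black bars for the mean ± SD of 3 libraries. Psmb8, Psmb9, Psmb7, Psmg1 and Psma8 are lower and Psmg3, Psmd9 and Psmd7 higher in all 3 Kit-lo libraries, while Psmb6, Psmb5, Psmb10 and Psmd3 overlap between groups.

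The genes that work with the immunoproteasome were read beside it. Of 12 partners in antigen processing, 3 were called lower (25%, background 9.83%) and 0 higher (background 12.1%). Among those called lower were the regulators of transcription *Irf1* (log2 fold change -1.18, adjusted p = 0.0293) and *Nlrc5* (-0.70, adjusted p = 0.0493). The *Irf1* groups overlapped, with Kit-lo replicate 1 above control replicate 3. *Tap1*, the peptide transporter that shares a promoter region with *Psmb9*, was at 144.9, 151.8 and 148.7 CPM in the control and 168.0, 97.5 and 93.9 CPM in the Kit-lo libraries. It was not called (log2 fold change -0.31, adjusted p = 0.252), and without Kit-lo replicate 1, which was above all the controls, it was -0.64 with an adjusted p of 0.00056. Kit-lo replicate 1 was also the highest Kit-lo library for *Psmb8*, *Psmb9*, *Psmb10*, *Irf1* and *Nlrc5*. *Irf1* lost its call without control replicate 1 or 2 or Kit-lo replicate 2 or 3 (adjusted p of 0.0685 to 0.135). *Nlrc5* lost its call without any of the control replicates and without Kit-lo replicate 2 or 3 (adjusted p of 0.0916 to 0.172), and with 3 other settings of normalization or filter (adjusted p of 0.0512 to 0.0715). The part of the scarce leukocyte markers in these falls was not tested.

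**Figure D3:**
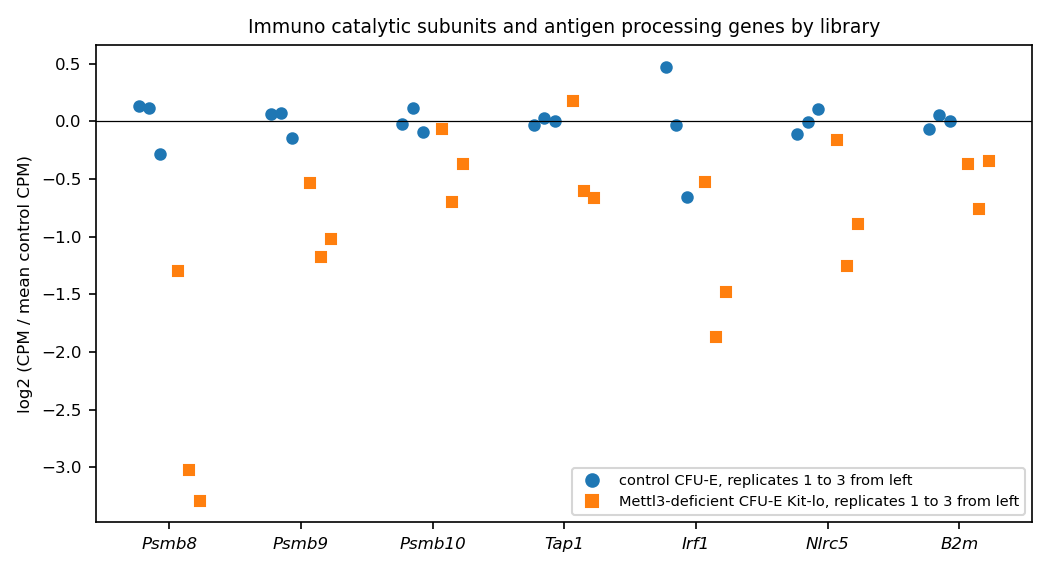
Log2 of the CPM in each RNA-seq library over the mean CPM of the 3 control libraries (y axis) for the immuno catalytic subunits Psmb8, Psmb9 and Psmb10 and 4 genes of antigen processing (x axis), with blue circles for control CFU-E and orange squares for Mettl3-deficient CFU-E Kit-lo, replicates 1 to 3 from left to right. Kit-lo replicate 1 is the highest of its group for every gene shown except B2m and lies above the controls for Tap1.

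The alpha ring was lower by a median of 0.28 on the log2 scale, with 5 of 8 genes lower at an adjusted p under 0.05 (62.5%, background 16.9%). The lowest was *Psma8*, the alternative alpha subunit known from testis, which was at 14.6, 18.0 and 17.5 CPM in the control and 7.01, 10.3 and 10.6 CPM in the Kit-lo libraries. The groups did not overlap, and the log2 fold change was -0.84 (SE 0.21, adjusted p = 0.0111). *Psma8* is a close paralog of *Psma7*, and reads that both share could be split between them by the counting. *Psma7*, the constitutive subunit at that position, fell by 0.45 (adjusted p = 0.0021), *Psma6* by 0.46 (adjusted p = 0.0044), *Psma2* by 0.29 (adjusted p = 0.0262) and *Psma5* by 0.28 (adjusted p = 0.0116). *Psma3* had the highest value, 0.17, at 100.7 to 115.7 CPM and 118.0 to 124.3 CPM, and did not pass (adjusted p = 0.172). The 4 structural beta subunits ran from -0.23 for *Psmb1*, at 47.6, 47.7 and 41.9 CPM and 36.3, 37.9 and 43.1 CPM, to 0.06 for *Psmb4*, at 24.2, 23.4 and 22.6 CPM and 23.4, 26.0 and 24.1 CPM, and none passed the test, 0 also at an unadjusted p under 0.05.

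The 19S base changed little. The 6 ATPases had a median of -0.15, none passed the test after adjustment and 1 was under 0.05 before it. Their range went from *Psmc5*, at 190.9, 158.0 and 181.6 CPM and 161.5, 147.4 and 152.4 CPM (log2 fold change -0.20, adjusted p = 0.126), to *Psmc1*, at 469.1, 438.2 and 457.8 CPM and 490.3, 462.9 and 415.0 CPM, whose log2 fold change of 0.0031 changed sign between settings. Of the other base subunits, which bind ubiquitin or shuttle factors, *Psmd1* fell by 0.28 (adjusted p = 0.0259) from 322.7 to 377.4 CPM to 279.5 to 303.0 CPM. *Psmd4*, a ubiquitin receptor, was at 709.0, 682.4 and 719.3 CPM and 715.7, 733.2 and 657.9 CPM, with overlapping groups.

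The lid moved both ways. *Psmd14*, the deubiquitinase of the lid, fell by 0.24 (adjusted p = 0.0187), *Psmd6* by 0.37 (adjusted p = 0.0156) and *Psmd8* by 0.39 (adjusted p = 0.0046). *Psmd8* was at 415.1, 409.0 and 438.5 CPM in the control and 314.1, 299.9 and 350.8 CPM in the Kit-lo libraries. *Psmd7*, the partner of Psmd14 in the lid, went the other way, at 600.9, 525.7 and 592.6 CPM in the control and 869.6, 805.0 and 794.0 CPM in the Kit-lo libraries. Its groups did not overlap, and its log2 fold change of 0.52 (SE 0.080, adjusted p = 0.00074) was below the 1.5-fold limit.

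The assembly chaperones are those of the base and those of the core. The 3 chaperones that help build the ATPase ring of the base all rose at an adjusted p under 0.05 (100%, background 17.6%). Their median was 0.37, and 1 of the 3 reached the fold limit. *Psmd9* was at 210.1, 185.1 and 208.6 CPM in the control and 288.9, 310.3 and 310.2 CPM in the Kit-lo libraries. The groups stood well apart, and its log2 fold change of 0.59 (SE 0.082, adjusted p = 0.00041) was just above the 1.5-fold limit of 0.58. It kept an adjusted p under 0.05 under each other normalization, filter and left-out library but fell below the fold limit with upper quartile normalization (0.55), without a filter on counts (0.57) and without control replicate 2 (0.53). *Psmd5* was at 459.3, 411.0 and 452.6 CPM and 577.5, 547.7 and 542.0 CPM (log2 fold change 0.33, adjusted p = 0.0065). *Psmd10* was at 50.3, 50.3 and 61.7 CPM and 61.7, 72.2 and 76.0 CPM, with Kit-lo replicate 1 level with control replicate 3 (log2 fold change 0.37, adjusted p = 0.0451). *Psmd9* overlaps the lincRNA *Gm26745* on the other strand over 25.5% of its exonic bases.

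Of the 4 chaperones of the 20S core, 3 were lower and 1 was higher in every Kit-lo library (100% without overlap, background 47.5%). *Psmg1*, which with Psmg2 brings alpha subunits together, was at 271.8, 266.2 and 291.0 CPM in the control and 148.5, 149.1 and 150.1 CPM in the Kit-lo libraries. The 3 Kit-lo libraries were nearly equal and far below the controls. The log2 fold change was -0.89 (SE 0.076, adjusted p = 2.06e-05), a 1.85-fold fall, and it passed the call under each other normalization, filter and left-out library. *Psmg2* was at 22.9, 23.5 and 18.5 CPM and 17.2, 14.8 and 13.0 CPM (log2 fold change -0.53, adjusted p = 0.0374), under the fold limit, which it passed without control replicate 3 (-0.64) or Kit-lo replicate 1 (-0.65). Of the other pair, *Psmg3* rose, at 78.4, 75.9 and 73.0 CPM and 91.8, 99.97 and 108.6 CPM (log2 fold change 0.40, adjusted p = 0.010). Its partner *Psmg4* was at 22.8, 21.6 and 18.5 CPM and 17.9, 15.3 and 13.5 CPM and did not pass (log2 fold change -0.43, adjusted p = 0.0741).

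Among the regulators that bind the ends of the core, *Psmf1*, the inhibitor known as PI31, was at 143.5, 144.8 and 141.0 CPM in the control and 176.2, 178.1 and 189.6 CPM in the Kit-lo libraries (log2 fold change 0.34, adjusted p = 0.0070). *Psme4*, the activator PA200, was at 33.4, 38.8 and 35.2 CPM and 20.9, 26.7 and 25.0 CPM, without overlap. Its log2 fold change of -0.56 (SE 0.14, adjusted p = 0.0114) was just under the fold limit, which it passed with upper quartile normalization (-0.60) and without control replicate 1 (-0.62) or Kit-lo replicate 2 (-0.62). The interferon-responsive activator subunits *Psme1* and *Psme2* had log2 fold changes of -0.24 and -0.27 and did not pass (adjusted p = 0.0997 and 0.149), nor did the nuclear activator *Psme3*, at -0.18 (adjusted p = 0.340). *Psme2b*, a near copy of *Psme2* whose reads are uncertain, was at 0.261 to 1.95 CPM and gave -0.77 (SE 0.74), which became 0.26 without control replicate 3. *Psmc3ip*, no proteasome gene, was at 16.95 to 19.7 CPM and 21.1 to 22.8 CPM (log2 fold change 0.22, adjusted p = 0.264).

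In the control RNA-seq libraries, transcript levels per length differed widely between subunits of the same particle. In control CFU-E the 31 constitutive subunits ran from 19.8 CPM per kb for *Psmb4* to 528 CPM per kb for *Psmd4*, a 26.7-fold range with a median of 134 CPM per kb. *Psmb2* was the highest of the core at 407 CPM per kb. The immuno catalytic subunits were lower than the 3 constitutive catalytic ones in the RNA-seq libraries, where the latter ran from 60.2 to 289 CPM per kb. Levels per kb are not given for the m6A input libraries, which were amplified with a 3′ primer, so that counts need not scale with length. In plain input CPM, *Psmb8* averaged 309 CPM and *Psmb10* 276 CPM, above *Psmb7* at 228 CPM. *Psmb5* averaged 510 CPM there, *Psmb6* 1560 CPM and *Psmb9* 71.8 CPM. Of the immuno subunits in the control RNA-seq, *Psmb10* was the highest at 45.8 CPM per kb, and *Psmb11* was the lowest gene of all at 0.178 CPM per kb. The order of the subunits was not the same in the 2 assays. *Psmb4* averaged 23.4 CPM in the control RNA-seq and 225 CPM in the input, and *Psmd2* 796 CPM and 97.8 CPM. The range and order per kb are thus those of the RNA-seq libraries. Lengths are those of 1 annotated principal transcript for each gene, and a different choice would move single values.

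**Figure D4:**
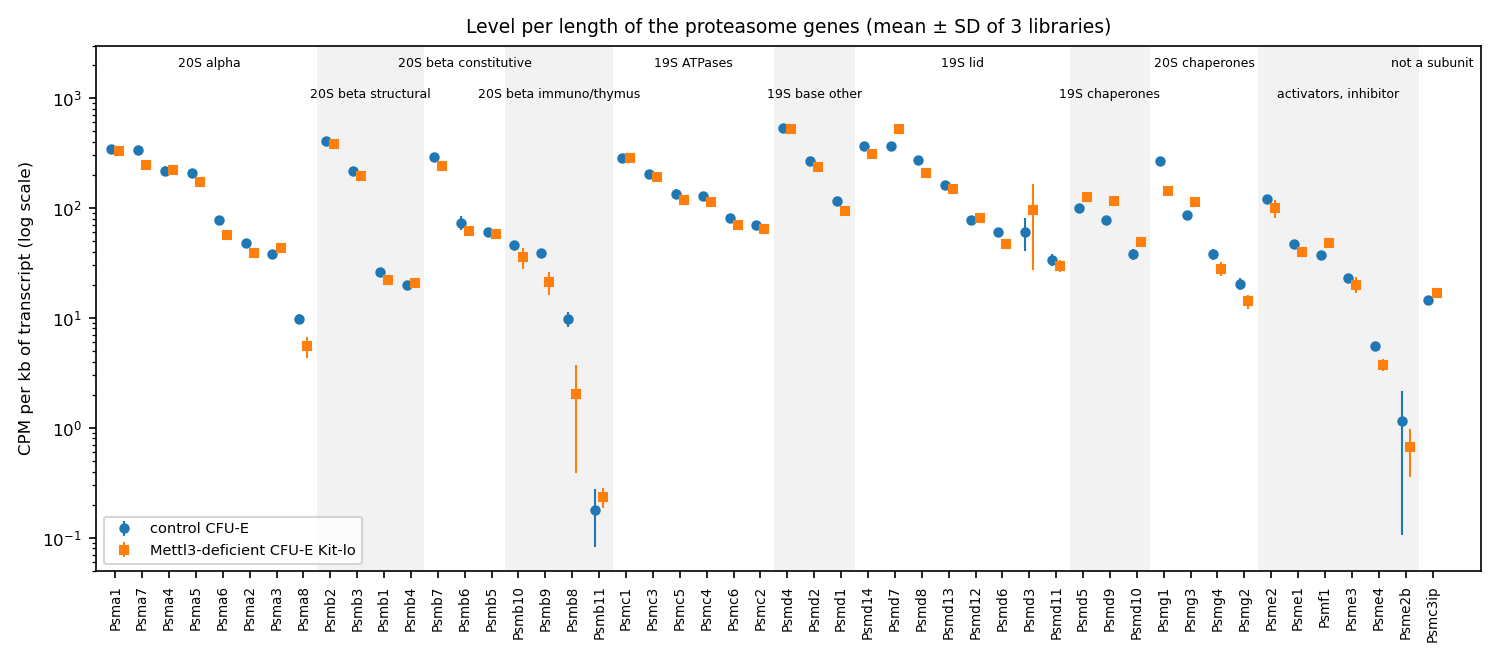
Level in CPM per kb of transcript (y axis, log scale) of the 50 proteasome genes (x axis, grouped by subcomplex and ordered by the control level), as the mean ± SD of 3 control CFU-E (blue circles) and 3 Mettl3-deficient CFU-E Kit-lo libraries (orange squares). The control levels of the 31 constitutive subunits span 19.8 to 528 CPM per kb, while most pairs of points of a gene lie close together.

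Summed over all 50 genes, the level was 10089, 9617 and 9998 CPM in the control and 9551, 9424 and 9530 CPM in the Kit-lo libraries, so that the groups did not overlap but differed by a small share. The sum of the 3 base chaperones was at 647 to 723 CPM against 928.0 to 930.1 CPM. That of the 4 core chaperones was at 387 to 401 CPM against 275 to 285 CPM, where *Psmg1* alone went from a mean of 276 to 149 CPM and *Psmg3* rose. The sum over the lid overlapped, at 2274 to 2390 CPM against 2329 to 2565 CPM, and held the variable *Psmd3*.

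Other genes of the ubiquitin-proteasome system were taken from a list of 23 that were tested, of which 3 were called lower (13.0%, close to the background of 9.83%) and 0 higher (background 12.1%). *Txnl1*, a redox protein bound to the 19S cap, fell by 1.03 (adjusted p = 2.94e-05), from 462.3, 508.6 and 548.7 CPM to 225.4, 251.7 and 265.7 CPM. *Faf1*, a cofactor of the unfolding ATPase Vcp, fell by 0.82 (adjusted p = 0.0081), and *Ecpas*, a scaffold that binds the 26S proteasome, by 0.73 (adjusted p = 0.00031). *Vcp* itself fell by 0.48 (adjusted p = 0.00044), below the fold limit, and *Fbxo7*, which binds the inhibitor Psmf1, rose by 0.46 (adjusted p = 0.0022).

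Of 13 tested genes for transcription factors of proteasome genes and the proteins that process them, 3 were called higher (23.1%, background 12.1%) and 1 lower (7.69%, background 9.83%). *Nfe2l1*, the factor that raises proteasome genes when the proteasome is inhibited, was at 88.4, 68.0 and 92.3 CPM in the control and 74.2, 89.6 and 113.4 CPM in the Kit-lo libraries, with overlap (log2 fold change 0.16, adjusted p = 0.512). *Ngly1*, the glycanase that acts on the Nfe2l1 protein, fell by 0.81 (adjusted p = 0.00024). *Keap1*, the adaptor that leads Nfe2l2 to degradation, rose by 0.67 (adjusted p = 0.00017), while *Nfe2l2* did not pass (-0.11, adjusted p = 0.338). *Nfe2*, the erythroid member of the family, rose by 0.67 (adjusted p = 0.0010), which became 0.57 and under the fold limit without Kit-lo replicate 1. *Nfya*, a CCAAT-binding subunit, was at 5.79, 2.75 and 3.95 CPM and 8.21, 8.74 and 7.04 CPM (log2 fold change 0.94, adjusted p = 0.0377), a call that was lost without control replicate 2 or 3 or Kit-lo replicate 1 or 2 (adjusted p of 0.0645 to 0.119).

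In the m6A libraries, the log2 fold change of IP over input measures how strongly a transcript was pulled down by the antibody relative to other transcripts. Of the 50 proteasome genes, 1 was called higher in IP at an adjusted p under 0.05 (2%, background 7.9%) and 2 were called lower (4%, background 7.86%). Fitted with the replicate number as a block, 5 were called higher (10%, background 15.6%) and 13 lower (26%, background 15.3%). With 2 IP and 2 input libraries, the block leaves almost no replication, so its p-values rest largely on spread pooled over genes. Whether same-numbered IP and input libraries came from the same RNA is not given in the sources used here. The IP and input libraries did not overlap in 26 of 50 genes (52.0%, background 60.9%). The median was -0.12, against 0.056 over all tested genes, with 18 genes above 0 and 32 below. The direction of a gene near 0 rests on the scaling: with library size only, the median over all tested genes moved to 0.21 and the proteasome genes stood at 26 above 0 and 24 below, and upper quartile normalization gave 0.18 and the same counts.

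**Figure D5:**
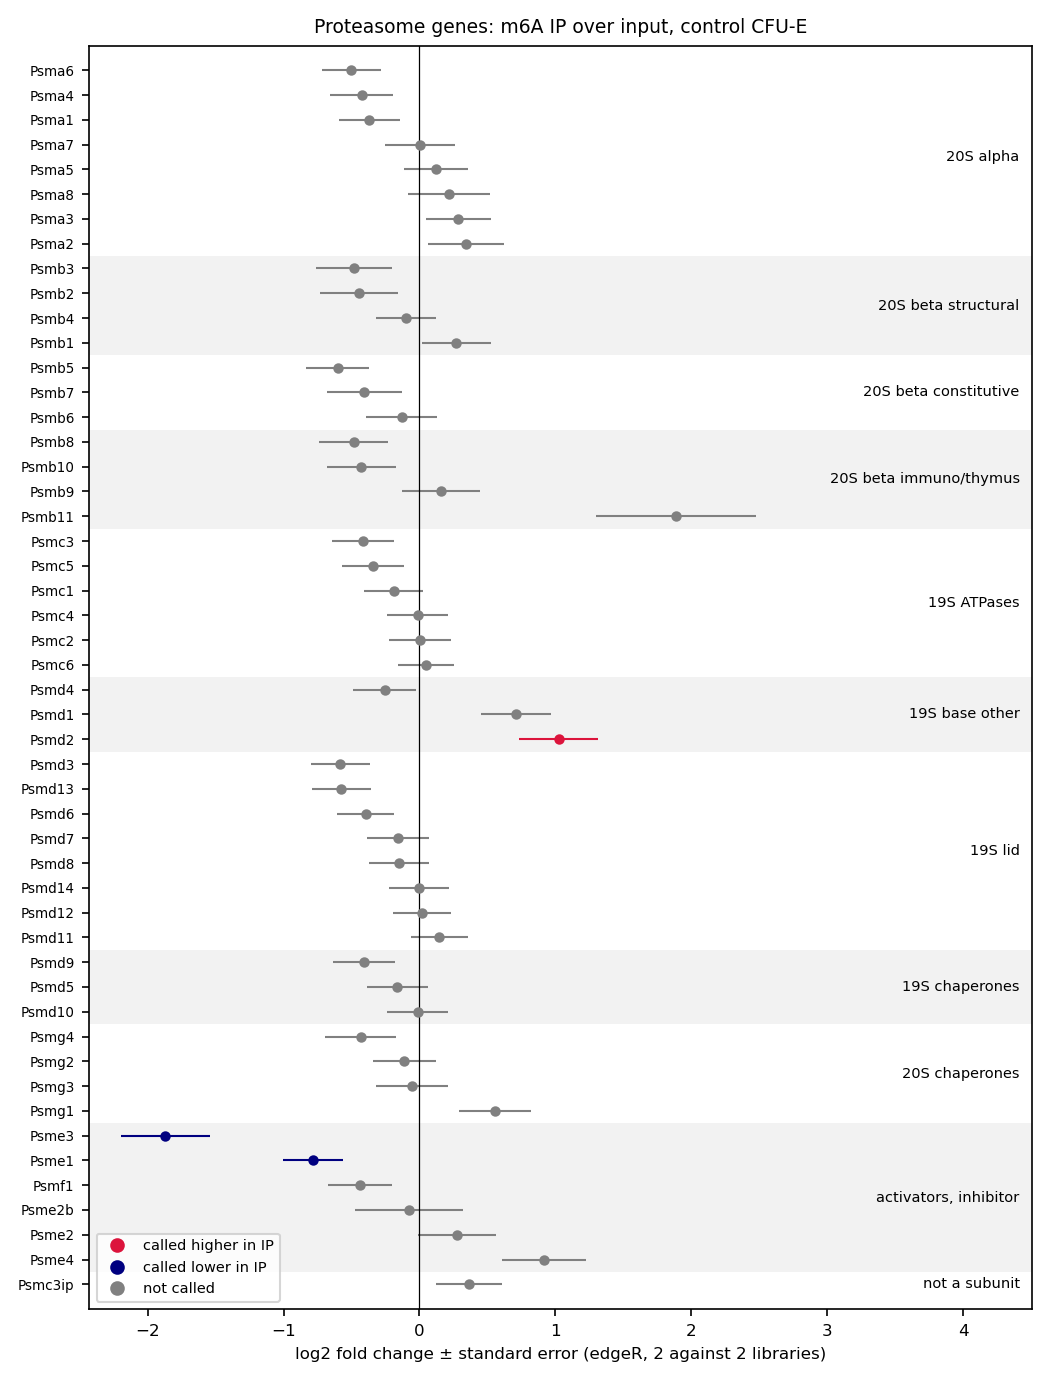
Log2 fold change of m6A IP over input in control CFU-E (x axis) for each of the 50 proteasome genes (y axis, grouped by subcomplex), with bars of 1 standard error from 2 IP and 2 input libraries. Psme3 lies far to the left at -1.87, Psmd2 is the 1 gene called higher, at 1.03, and Psmb11 lies at 1.89 with a wide bar and was not called.

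*Psmd2*, with *Psmd1* a large scaffold subunit of the base, was at 106.3 and 89.3 CPM in the input and 258.9 and 139.3 CPM in the IP libraries. Both IP libraries were above both input libraries, and IP replicate 1 was much the higher. The log2 fold change was 1.03 (SE 0.29, adjusted p = 0.0385), and it did not pass without input replicate 1 or 2 (adjusted p = 0.140 and 0.145) or without IP replicate 1 (0.49, adjusted p = 0.281). *Psmd1* showed the same order, at 98 and 82.3 CPM against 181.1 and 114.0 CPM, and was not called (log2 fold change 0.71, adjusted p = 0.0875). *Psme4*, a long transcript at 4.06 and 5.45 CPM in the input and 9.52 and 8.34 CPM in the IP, was not called either (0.92, adjusted p = 0.0686). *Psmb11* gave the highest value, 1.89, from 0.265 and 0.843 CPM against 2.09 and 1.91 CPM (adjusted p = 0.0524). With the block *Psmd1* (adjusted p = 0.0054), *Psme4* (adjusted p = 0.0235) and *Psmb11* (adjusted p = 0.0175) were called higher too.

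*Psme3*, the nuclear activator PA28 gamma, was at 426.1 and 317.3 CPM in the input and 136.7 and 66.5 CPM in the IP libraries. The log2 fold change of -1.87 (SE 0.33, adjusted p = 0.0040) was a 3.65-fold depletion, and it was called in every alternative of the fit, from -2.50 without IP replicate 1 to -1.45 without IP replicate 2. *Psme1*, a subunit of the PA28 alpha-beta activator, was at 356.0 and 368.2 CPM in the input and 184.9 and 236.2 CPM in the IP (log2 fold change -0.78, SE 0.22, adjusted p = 0.0382). Its call was lost with upper quartile normalization (-0.65, adjusted p = 0.0878) and without input replicate 1, input replicate 2 or IP replicate 1 (adjusted p of 0.124 to 0.200). Its partner *Psme2* was at 260.9 and 433.9 CPM and 344.0 and 497.2 CPM, with overlap (0.28, adjusted p = 0.549).

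The common m6A consensus GGACT was located in the annotated transcripts of these genes in GENCODE, and windows of 25 bases with the motif in capitals are shown for the genes called higher and lower with a match. *Psmd2* held 1, inside its coding sequence. *Psme3* held 4, of which 2 were in the coding sequence and 2 in the 3′ untranslated region, the first of these 20 bases after the stop codon. *Psme1* held 0.
Psmd2, coding, transcript base 1376: actcctctgaGGACTacatcaagtc
Psme3, coding, transcript base 466: tagccacgatGGACTggatggtccc
Psme3, coding, transcript base 834: cccatgtggaGGACTatcgccgcac
Psme3, untranslated, transcript base 1019: cagggccaggGGACTttgtgagtct
Psme3, untranslated, transcript base 1473: cgtttctgtgGGACTttgggtcctc

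Of these members, *Psme3*, the most depleted, held more matches than *Psmd2*. Over all tested genes, those called higher in IP had a median of 4 matches (0.953 per kb). Those called lower had 3 (1.08 per kb). Over the 50 transcripts the median was 2 matches, or 1.21 per kb, and 41 held at least 1 (82.0%), against a median of 3, 1.03 per kb and 91.4% over all tested genes. The median length of the 50 transcripts was 1435 bases, against 2960 over all tested genes, 4110 over those called higher in IP and 2279 over those called lower.

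No subunit of either catalytic set was called in the m6A comparison without the block, while with it *Psmb5* (-0.61, adjusted p = 0.0073), *Psmb8* (-0.49, adjusted p = 0.0214) and *Psmb10* (-0.45, adjusted p = 0.0368) were called lower. *Psmb5* had the lowest value, at 479.9 and 539.6 CPM in the input and 290.1 and 381.2 CPM in the IP (log2 fold change -0.60, adjusted p = 0.10). *Psmb7* was at 165.1 and 291.1 CPM and 154.9 and 189.7 CPM (-0.40), *Psmb8* at 264.5 and 354.3 CPM and 180.5 and 262.0 CPM (-0.48) and *Psmb10* at 243.9 and 308.1 CPM and 162.5 and 247.8 CPM (-0.43). *Psmb6*, at 1407 and 1714 CPM and 1166 and 1684 CPM (-0.13), and *Psmb9*, at 54.7 and 88.9 CPM and 65.4 and 94.8 CPM (0.16), changed sign between settings, as did *Pomp*, at 689.8 and 827.4 CPM and 591.8 and 842.3 CPM (-0.08). The control CFU-E level of *Psmb8* thus differed between the assays, with 264.5 and 354.3 CPM in the input and 13.0 to 17.3 CPM in the RNA-seq libraries. Other members differed too. *Psmb6* averaged 1560 CPM in the input and 58.7 CPM in the control RNA-seq, and *Psmd2* 97.8 CPM and 796 CPM. The input and RNA-seq libraries were prepared by different protocols.

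No gene of the following subcomplexes was called without the block. With it *Psma4*, *Psma6*, *Psmb2*, *Psmb3*, *Psmd3*, *Psmd13* and *Psmg4* were called lower and *Psmg1* higher. The alpha ring ran from -0.50 for *Psma6* to 0.34 for *Psma2*, the structural beta subunits from -0.48 for *Psmb3* to 0.27 for *Psmb1*, the ATPases from -0.41 for *Psmc3* to 0.05 for *Psmc6* and the lid from -0.58 for *Psmd3* to 0.15 for *Psmd11*. The base chaperones ran from -0.41 for *Psmd9* to -0.01 for *Psmd10*, and the core chaperones from -0.43 for *Psmg4* to 0.56 for *Psmg1*. *Psmg1*, the core chaperone that was lower in the Kit-lo libraries, was at 126.7 and 198.4 CPM in the input and 208.5 and 269.4 CPM in the IP and was not called (adjusted p = 0.173). Of the 5 genes called in the RNA-seq, 0 were called in the m6A comparison without the block, and with it *Psmb8* was called lower and *Psmg1* higher (0.58, adjusted p = 0.0102). Of the 50 genes, 22 were below 0 in both comparisons and 4 above 0 in both, and Pearson's r between the log2 fold changes was 0.0061 over 50 genes, which are not independent.

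Among the other genes of the ubiquitin-proteasome system, 1 of 23 was called higher in IP (4.35%, background 7.9%) and 3 lower (13.0%, background 7.86%). *Akirin2*, which helps bring proteasomes into the nucleus, was depleted from 47.8 and 43.1 CPM to 6.28 and 4.82 CPM (-3.02, adjusted p = 5.24e-05), and *Zfand5* and *Faf1* were lower at -1.53 and -1.46. Of the 13 genes around proteasome transcription, *Ddi2*, the protease that activates the Nfe2l1 protein, was called higher (1.51, adjusted p = 0.0097), and *Nfe2* (-1.20), *Keap1* (-1.09) and *Mafg* (-0.88) were called lower. Of the 12 partners in antigen processing, *Erap1* was called higher (1.15) and *H2-D1* (-1.01), *H2-K1* (-0.92) and *Calr* (-0.87) lower. Of the genes named here, *Akirin2*, *Zfand5* and *Nfe2* kept their calls in every alternative, while *Ddi2*, *Faf1* and *Keap1* lost theirs without input replicate 1 (adjusted p of 0.103 to 0.126) and *Erap1*, *Mafg*, *H2-K1*, *H2-D1* and *Calr* without either input replicate (adjusted p of 0.0664 to 0.311), the last 5 also in other settings.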

How the data were processed

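RNA-seq was made from sorted cells with an oligo-dT protocol (Smart-seq2), and m6A libraries by immunoprecipitation of total RNA with an antibody to m6A, followed by oligo-dT priming with molecular identifiers and Tn5 tagmentation. Reads were trimmed with fastp 0.23.4 and quantified on mm10 with Kallisto 0.48.0, and the authors deposited estimated counts per gene as whole numbers, not normalized. Whether strand and molecular identifiers were used in counting is not given in the sources used here. Groups came from the sample labels. The 6 ProE samples were not analysed here.

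Both count tables were fitted whole in edgeR 4.0.16 (R 4.3.3) with filterByExpr, TMM scaling and the quasi-likelihood test, and p-values were adjusted by Benjamini-Hochberg over all tested genes. RNA calls needed a fold of 1.5 and an adjusted p under 0.05, m6A calls an adjusted p under 0.05. Standard errors were the log2 fold change over the square root of F. The same steps were tested on simulated data. Alternatives were DESeq2 1.42.0, other scalings and filters, a replicate block and leaving out each library. Ratios of catalytic subunits were compared by exact permutation. Intervals between libraries cover their spread only. Motifs were searched in RefSeq promoters and GENCODE M21 transcripts. The members and lists were chosen with earlier results of these data known. The text names all called members, the extremes of each subcomplex, catalytic and assembly genes, and called genes of the other lists, of which some are not reported here. The depth, over 17429262 counts in every library, limits the genes with the lowest RNA-seq levels, *Psme2b*, *Psmb11* and *Psmb8*.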

Additional observations from a re-analysis of the deposited data

How the results depend on the processing

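With DESeq2, RLE factors, library size only, a minimum of 1 CPM and the replicate block, the 5 RNA calls kept their direction and side of the threshold. The number called higher went from 1 to 0 with upper quartile normalization, without a filter and with glmTreat, to 6 without a fold limit, and from 0 to 2 over left-out libraries; the number called lower went from 4 to 15 without a fold limit, to 2 with glmTreat, and from 4 to 5 over left-out libraries. With library size only, the median log2 fold change was -0.13 over all members, -0.23 for the alpha ring, -0.097 for the ATPases and -0.097 for the lid, and with upper quartile normalization -0.32 for the alpha ring and -0.19 for the lid. Over left-out libraries the median ran from -0.21 to -0.14 for all members, -0.30 to -0.25 for the alpha ring, -0.25 to -0.14 for the constitutive catalytic subunits, -0.18 to -0.10 for the ATPases, -0.22 to -0.11 for the other base subunits, -0.20 to -0.10 for the lid, 0.31 to 0.47 for the base chaperones and -0.34 to -0.20 for the activators. In the m6A comparison the number called higher went from 1 to 2 with library size only, 4 with upper quartile normalization, 2 with a minimum of 1 CPM, and 0 to 2 over left-out libraries; the number called lower went from 2 to 1 with upper quartile normalization, 1 at a log2 fold change of at least 1, and 1 to 6 over left-out libraries. The m6A medians with library size only and upper quartile normalization were 0.051 and 0.032 for the ATPases and -0.0042 and -0.022 for the lid, and over left-out libraries ran from -0.33 to 0.040 for all members, -0.16 to 0.22 for the alpha ring, -0.71 to 0.011 for the constitutive catalytic subunits, 0.32 to 1.0 for the other base subunits, -0.29 to -0.048 for the lid and -0.35 to -0.023 for the base chaperones. Genes near 0 changed sign: in the RNA-seq *Psmc1* (-0.035 with upper quartile normalization, -0.015 without a filter, -0.056 to 0.082 over left-out libraries), *Psmd4* (0.052 with library size only, 0.0013 with a minimum of 1 CPM, -0.031 to 0.057), *Psmb5* (-0.14 to 0.0071), *Psme2b* (-1.17 to 0.26), *Nfe2l1* (-0.0043 to 0.29) and *Mettl3* (-0.12 to 0.0027), and in the m6A comparison *Psmb6* (0.015 with library size only, 0.0049 with upper quartile normalization, -0.42 to 0.093), *Pomp* (0.065, 0.054, -0.36 to 0.13), *Psmd10* (0.14, 0.12, -0.19 to 0.15), *Psmb7* (-0.78 to 0.054) and *Psmb9* (-0.17 to 0.54). The cause of these changes was not tested.

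In the RNA-seq, same-numbered libraries did not deviate together. The deviations of same-numbered libraries correlated at 0.034, -0.017 and -0.072 between RNA-seq libraries and at 0.205 between IP and input, where only 2 pairs exist and pairing could not be settled. With the replicate block the RNA calls were 1 higher and 4 lower, and the m6A calls 5 higher and 13 lower, with 3538 genes called in all against 1804.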
